A study of Mus musculus with 6 samples.

Results

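Cells cannot make folate and depend on proteins that bring it in, move it between compartments and hold it inside. The folate receptors Folr1 and Folr2, the carriers Slc19a1, Slc46a1 and Slc25a32, and the retention enzymes Fpgs and Ggh were examined here in the cerebellum of postnatal day 1 (P1) mouse pups whose dams had received different amounts of folic acid (FA). They were chosen by name, as the probes whose gene name in the array files equals one of these symbols, which gave 7 of 34797 gene names and 10 of 55681 probes that are not controls. All dams were C57BL/6J mice. Their feed, an AIN-93G formula with amino acids in place of protein, held FA at 2 mg/kg for the control group and 20 mg/kg for the test group, and they ate it from 1 week before they were mated until the end of gestation. RNA of the pups was hybridized to 6 single-colour arrays, each a pool of 3 pups from 3 different dams. For each sex there was 1 array at 2 mg, and there were 2 arrays at 20 mg; the study drew a further batch of extractions at this dose, and the labels do not say which arrays hold it. The comparison asks whether the machinery that handles folate in the newborn cerebellum differed with maternal FA.

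The members have distinct roles. Folr1 and Folr2 are membrane-anchored receptors that bind folate with high affinity and take it up by endocytosis. Folr1 is the receptor of the choroid plexus, the epithelium in the brain ventricles that passes folate from the blood into the cerebrospinal fluid, and Folr2 is known from macrophages, including those at the borders of the brain. Slc19a1 is the reduced folate carrier, Slc46a1 is the proton-coupled folate transporter that also serves the intestine and the choroid plexus, and Slc25a32 brings folate into mitochondria. Fpgs adds a chain of glutamates that keeps folate in the cell, and Ggh removes that chain in the lysosome, so the pair act in opposite directions.

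A few facts about the probes bear on all values below. Folr2, Slc25a32, Fpgs and Ggh had 1 probe each, while Folr1, Slc19a1 and Slc46a1 had 2 probes each, and for these the probe with the higher mean signal is described in full. Every probe is 60 bases long and its place is given in mm9 by the array design; whether it lies in an exon, an intron or a UTR was not determined here. The sequences below are the first 30 bases, 5′ to 3′, of the probes on which the results turn, namely the receptor pair, which lie close together on chromosome 7, and the carrier with the lowest value on any array. The 2 probes of Folr1 and the 2 of Slc19a1 share no position, and they gave different values, as described with each gene.
Folr1, described in full, minus strand, chr7:109006846-109006905: gtggtggggctctgacagcctctttaataa
Folr1, other probe, minus strand, chr7:109016972-109017031: ctgggctttttcctgtgctccgagtaggtg
Folr2, minus strand, chr7:108988771-108988830: gtttgactcaacccagggcaatcccaatga
Slc19a1, described in full, plus strand, chr10:76512874-76512933: caggccactgcgagtctgggttgtctattg
Slc19a1, other probe, plus strand, chr10:76501259-76501318: cagttgcgtcctggggaaagcttcatcaca

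The arrays were not equally bright. On 5 arrays 51.1% to 71.9% of the probes were well above background, a call made by the scanner software, and the array with the label female 20 mg replicate 2 had 23.3%. The median signal of that array was 5.14 before normalization, against 39.0 to 162 on the others, and its mean rank correlation with the other arrays was 0.66, against 0.86 to 0.89. Of the 10 member probes, 9 were well above background on all 5 brighter arrays, and 5 were on female 20 mg replicate 2. Folr2, Slc19a1 and Slc25a32 were not well above background there, so that array holds only a bound on them, and each result that rests on it is given with and without it. The 2 mg arrays and female 20 mg replicate 1 shared a slide, and the other slides held 20 mg arrays alone.

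Values are log2 signals after quantile normalization over the 6 arrays, which gives every array the same distribution, with a floor of 10 on the linear scale. Differences are 20 mg minus 2 mg on that scale, and a probe is not compared in level with another probe. With 1 array at 2 mg per sex, the 2.5-fold rule of the study is a description with no test, and the tests come from limma, which borrows the spread at 20 mg for the 2 mg arrays. It also moves the spread of each probe toward that of probes with a like mean signal. Its SEs, intervals and p values are therefore not set by the spread of the gene alone.

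**Figure D1:**
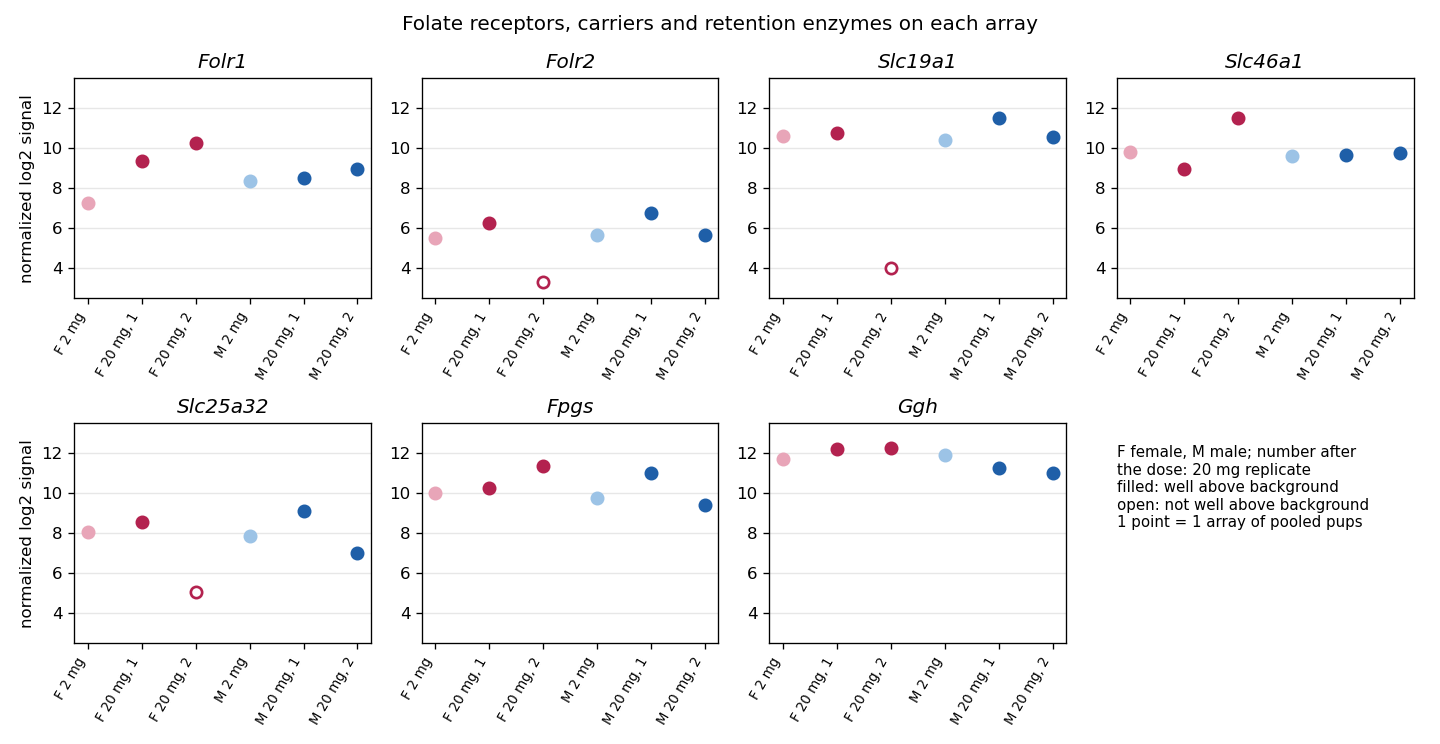
Normalized log2 signal (y axis) of the 7 members on each of the 6 arrays (x axis; F female, M male, dose in mg FA per kg diet, then the 20 mg replicate). Filled points were well above background and open points were not. Folr1 was lowest on both 2 mg arrays, at 7.26 and 8.36, and the open points of Folr2, Slc19a1 and Slc25a32 all belong to female 20 mg replicate 2.

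Folr1 was the member whose doses were separated. In female pups it measured 7.26 at 2 mg, and 9.36 and 10.26 on the 20 mg arrays. In male pups it measured 8.36 at 2 mg, and 8.51 and 8.97 at 20 mg. All 4 arrays at 20 mg thus lay above both at 2 mg, which held for 1 of the 7 members, beside 3.74% of all probes tested. No member had all 4 below both at 2 mg, beside 4.59% of all probes. In a pool of tissue, fewer cells of a type and less RNA per cell cannot be told apart.

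The Folr1 difference in females was 2.55 on the log2 scale, a 5.84-fold higher mean at 20 mg, with an SD of 0.64 between the 20 mg arrays (n = 2). In males it was 0.38, with an SD of 0.33 (n = 2), so the male arrays at 20 mg stood above the 2 mg array by about the spread between them. The 2 mg arrays themselves differed by 1.10, the male one being higher, which is more than the male difference between doses. By the 2.5-fold rule, 1 of 7 members was higher at 20 mg in females, Folr1, beside 7.12% of all probes, and 1 was lower, Slc19a1, beside 17.3%. In males no member was past 2.5-fold, where 2.21% of all probes were higher and 4.19% lower.

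The female difference of Folr1 did not rest on the dim array. On the slide that held both female 2 mg and female 20 mg replicate 1, the latter was higher by 2.10, or 4.28-fold, and with the dim array left out and the other 5 normalized again it was higher by 2.17. Folr1 was again the only member past 2.5-fold higher on that slide, beside 1.95% of all probes, and no member was lower, beside 3.06%. Before normalization the processed signals of Folr1 were 314 on female 2 mg, 2764 on female 20 mg replicate 1 and 54.5 on the dim replicate 2, and they were 871 on male 2 mg, 533 and 328 on the male 20 mg arrays. Without normalization, therefore, the male 20 mg arrays lay below the male 2 mg array, and female 20 mg replicate 2 lay below female 2 mg. Only female 20 mg replicate 1 then lay above both 2 mg arrays. The male difference, the value of the dim array and the separation of all 4 arrays at 20 mg depend on the scaling of dimmer arrays.

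Leaving out female 20 mg replicate 2 brought Folr2 into the same class as Folr1, so that 2 of 7 members had all 3 remaining 20 mg arrays above both at 2 mg, beside 8.04% of all probes. None had them below, beside 7.03%. With fewer arrays such a pattern is more frequent, as the share of all probes shows.

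The other probe of Folr1, upstream on the same strand, did not share this pattern. It measured 5.04 on female 2 mg, then 5.50 and 5.35 on the female 20 mg arrays, and 5.23 on male 2 mg, then 3.93 and 5.95 at 20 mg. Its differences were 0.39 in females and -0.29 in males, and it was not well above background on female 20 mg replicate 2 or on male 20 mg replicate 1. Over the 6 arrays its values had a Pearson r of 0.33 with those of the probe described in full. With the mean over both probes, Folr1 still differed by 1.47 in females, past 2.5-fold, and by 0.04 in males, and its doses overlapped.

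Folr2, the other receptor, had no shared direction over its 20 mg arrays. It measured 5.50 at 2 mg in females, 6.27 on 20 mg replicate 1, and lay at the floor, 3.32, on the dim replicate 2. In males it measured 5.65 at 2 mg, and 6.74 and 5.66 at 20 mg, so that replicate 2 differed from the 2 mg array by 0.01. The male difference was 0.55 with an SD of 0.77 (n = 2), which is within the spread. In females the mean difference was -0.70 with an SD of 2.08 (n = 2), and 0.77 on the shared slide, where replicate 1 was measured above background. Only the array without a measured Folr2 signal gave the negative sign.

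**Figure D2:**
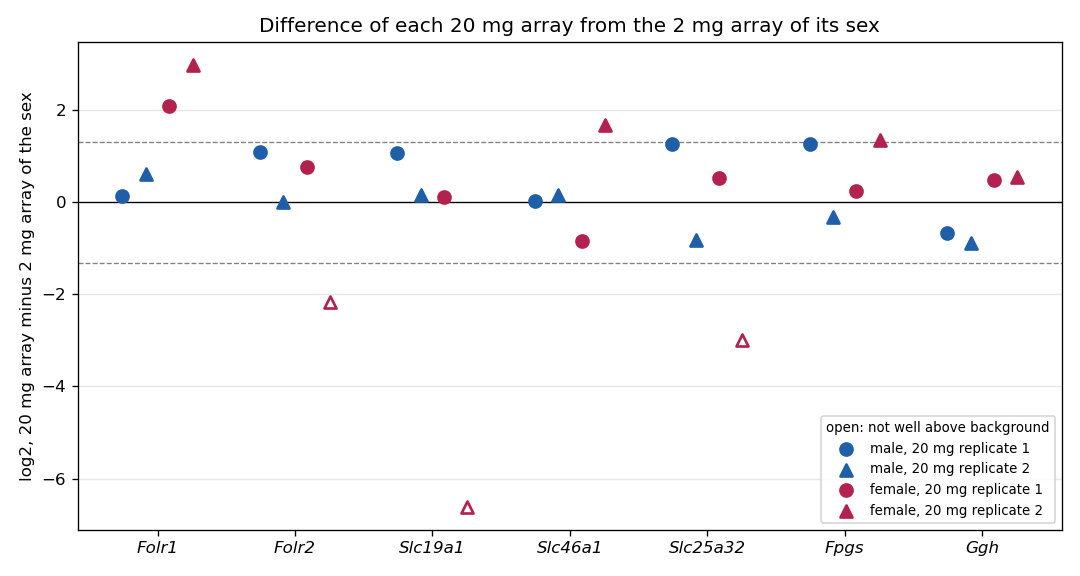
Log2 difference (y axis) of each 20 mg array from the 2 mg array of its sex for the 7 members (x axis); circles are replicate 1, triangles replicate 2, blue males, red females, and open symbols were not well above background. Dashed lines mark 2.5-fold. Both female points of Folr1 lie above the line, at 2.10 and 3.00, while the lowest points, down to -6.63 for Slc19a1, are open symbols of 1 array.

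Among the carriers, Slc19a1 measured 10.63 on female 2 mg and 10.74 on female 20 mg replicate 1, but 4.0 on replicate 2. In males it measured 10.42 at 2 mg, and 11.50 and 10.58 at 20 mg. By this probe the reduced folate carrier was thus higher by 0.12 in the female 20 mg pool that measured it, and higher by 0.62 with an SD of 0.65 (n = 2) in males. The female mean difference of -3.26 had an SD of 4.77 (n = 2) and came from the dim array, on which this probe gave a processed signal of 4.6 and was not well above background. Without that array the difference was 0.11, so the second member past 2.5-fold in females, a lower Slc19a1, was a count that 1 array decided.

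The other probe of Slc19a1 measured 6.92, 6.40 and 5.32 on the female arrays, in the order 2 mg, replicate 1 and replicate 2. Its female difference on the shared slide was -0.52, opposite in sign to the 0.12 of the first probe, and it was well above background on both arrays. On the male arrays it measured 6.59, 5.73 and 8.60. The male 20 mg arrays therefore lay on either side of the 2 mg array for this probe, by -0.86 and 2.01, and the r of its values with the first probe was 0.47 over 6 arrays.

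Slc46a1 was the steadiest member in males and not in females. In males it measured 9.61 at 2 mg, and 9.65 and 9.77 at 20 mg, a difference of 0.10 with an SD of 0.09 (n = 2). In females it measured 9.81 at 2 mg, then 8.98 and 11.49 at 20 mg, so that the replicates lay on opposite sides of the 2 mg array, at -0.83 and 1.68. Its probes, which lie next to each other on chromosome 11, gave the same picture, with an r of 0.99 over 6 arrays and other-probe differences of 0.32 in males and 0.36 in females. Both probes gave this disagreement between the female 20 mg pools, each well above background on every array. Before normalization the probe described in full gave 2020 on female 2 mg, 2136 on replicate 1 and 155 on the dim replicate 2. The high value on the dim array thus depends on its scaling. All 5 member probes well above background there, of Folr1, Slc46a1, Fpgs and Ggh, had their highest normalized value on that array.

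Slc25a32, the mitochondrial carrier, measured 8.04 at 2 mg in females, then 8.57 and, on the dim array, 5.04. In males it measured 7.84 at 2 mg, then 9.11 and 7.02. The male 20 mg pools lay on either side of the 2 mg pool, and their SD of 1.48 (n = 2) exceeded the difference of 0.22. In females the mean difference was -1.23 with an SD of 2.5, and 0.53 on the shared slide.

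Fpgs and Ggh, the retention enzymes, were both well above background on every array. Fpgs measured 10.02 at 2 mg in females, then 10.27 and 11.37 at 20 mg, and 9.75 at 2 mg in males, then 11.01 and 9.42. Its differences were 0.80 in females with an SD of 0.78 and 0.47 in males with an SD of 1.12 (n = 2 each), so they were about as large as the spread between pools or smaller. On the shared slide the female difference was 0.25.

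The 20 mg pools of Ggh lay close together in both sexes after quantile normalization. In females it measured 11.72 at 2 mg, then 12.21 and 12.27 at 20 mg. In males it measured 11.91 at 2 mg, then 11.25 and 11.02. The hydrolase was higher by 0.52 in females, with an SD of 0.04 (n = 2), and lower in males, at -0.77 with an SD of 0.16 (n = 2), so in each sex both 20 mg pools lay on the same side of the 2 mg pool, and the sides were opposite. These folds, 1.43 and 1.71, are under the rule of 2.5-fold, and each rests on a single 2 mg pool whose own spread was not measured. The difference between the sexes, 1.29 with an SE of 1.44, had an adjusted p of 0.999965 by limma. With a 75th percentile shift in place of quantile normalization, the SD between the 20 mg pools was 0.49 in females and 0.37 in males. The differences between doses were then 0.81 and -0.84, so their signs held and the closeness of the pools did not.

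The spread between the 20 mg pools sets the scale for all members. The 20 mg arrays of the same sex differed by 2.5-fold or more at 38.2% of all probes in males, where 2 of 7 members did so, and at 54.2% in females, where 4 of 7 did. The members past this size between replicates thus outnumbered those past it between doses, in both sexes. In females they were Slc46a1 and, with no signal well above background on the dim array, Folr2, Slc19a1 and Slc25a32. The female spread therefore rests on the dim array, and without that array a single female 20 mg array is left and no spread can be given.

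By limma, 0 members were called in males, in females, over both sexes or for the difference between sexes, as were 0% of the 37206 probes tested. The adjusted p of every member was 1 within each sex, 0.99996 over both sexes and 0.999965 for the difference between sexes, after Benjamini-Hochberg adjustment over all probes. At an unadjusted p under 0.05, 74 of all probes passed in males, 161 in females, 144 over both sexes and 51 for the difference between sexes, and 0 of the 7 members in any of these. Each count is far below a share of 0.05 of the 37206 probes, so 0 members among them says little about the members. For Folr1 over both sexes the difference was 1.46 with an SE of 1.12 and an unadjusted limma p of 0.206, and in females the 95% interval of the difference ran from -0.75 to 5.84. For Ggh, the member with the smallest SE, the interval in males ran from -2.90 to 1.35. These intervals rest on the spread shared across probes as well as on 2 residual degrees of freedom. They include both no difference and differences well past 2.5-fold.

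The median difference over the 7 members was 0.38 in males and 0.43 in females, beside -0.04 and -0.21 for all probes tested. In males 6 of 7 were above 0, all but Ggh, beside 47.4% of all probes. In females 4 of 7 were above 0 over both 20 mg arrays, beside 42.2%, and 6 of 7, all but Slc46a1, on the shared slide, beside 52.2%. Of the 7 differences, 4 were smaller than the SD between the 20 mg pools in males and 4 in females.

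The genes that act beside the members were counted by the same rule. The other genes listed under folate transport were the efflux pumps Abcc1 to Abcc5 and Abcg2, the megalin gene Lrp2, Folr4 and Folh1. Whether each moves folate was not examined. Of these genes, 9 were on the array and 8 were tested. None was past 2.5-fold in males, and in females 0 were higher and 2, or 25%, lower, with medians of -0.32 and -0.22. The 2 were Folr4, at -2.12, and Abcc3, at -1.32 and only just past the rule. Neither was well above background on the dim array. Of 21 enzymes of the folate cycle, 0 were higher and 1 lower in males, and 0 were higher and 7, or 33.3%, lower in females, with medians of 0.03 and -0.18. Of all probes 7.12% were higher and 17.3% lower in females, and 2.21% and 4.19% in males. With 8 and 21 genes tested, 1 gene moves a share by much, and whether either list departs from the array was not tested. On the shared slide 0 of the transport genes and 1 of the 21 enzymes were lower, beside 3.06% of all probes. Most of the female counts thus came with the dim array.

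That enzyme was Amt, the aminomethyltransferase of the glycine cleavage system, the only gene of these lists past 2.5-fold in 1 direction on every 20 mg array of a sex and, at 1 dose of that sex, detected well above background throughout. It measured 5.32 at 2 mg in females, then 3.82 and 3.32 at 20 mg, and 4.97 at 2 mg in males, then 3.32 and 4.69. The value of 3.32 is the floor, and Amt was well above background on 3 of 6 arrays, so its lowest values are bounds. The limma estimate in females was -1.74 with an SE of 1.20 and an adjusted p of 1.

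**Figure D3:**
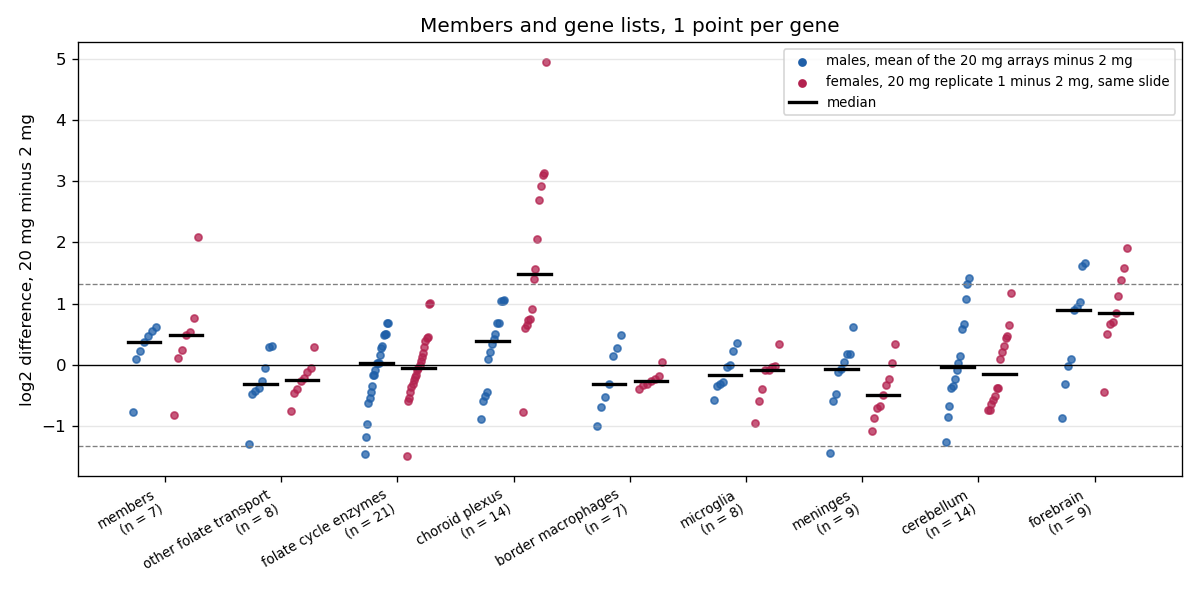
Log2 difference, 20 mg minus 2 mg (y axis), of the 7 members and of the tested genes of each list (x axis), 1 point per gene; blue is the mean difference in males, red is female 20 mg replicate 1 minus female 2 mg on the same slide, and black bars are medians. Dashed lines mark 2.5-fold. The red points of the choroid plexus list have a median of 1.49, and those of the folate cycle enzymes one of -0.05.

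Folr1 is a gene of the choroid plexus, so the markers of that epithelium were set beside it. Of 14 listed markers, all tested, 7 were past 2.5-fold higher and 1 lower in females, beside 7.12% and 17.3% of all probes. In males 0 were past it in either direction, beside 2.21% higher and 4.19% lower of all probes. Their median difference was 1.51 in females and 0.38 in males. On the slide shared by the female arrays, 8 of 14 were past 2.5-fold higher, beside 1.95% of all probes. There 13 of 14 were above 0, beside 52.2%, with a median of 1.49 beside 0.03 for all probes. The median of the choroid plexus markers and Folr1 therefore lay in the same direction in the female pools. Kl, Sostdc1, Prlr and Tmem72 were below 0 in the female mean, at -0.73, -1.28, -2.09 and -1.12. None of them was well above background on the dim array. The part of tissue content in the Folr1 difference was not tested.

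The values of single markers show the size of this shift. Ttr, the thyroxine carrier that the choroid plexus secretes, measured 11.21 on female 2 mg, then 16.16 and 14.59 on the female 20 mg arrays, and 14.26 on male 2 mg, then 15.31 and 15.30. It was thus lowest on the female 2 mg array, as Folr1 was, and all 4 of its 20 mg arrays lay above both at 2 mg. The female difference of Ttr was 4.16 with an SE of 0.94, an unadjusted limma p of 0.000226 and an adjusted p of 1.

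Kcne2, a potassium channel subunit of this epithelium, measured 6.12 on female 2 mg, then 9.27 and 11.08, and 7.99 on male 2 mg, then 8.99 and 8.35. Clic6, a chloride channel protein, measured 7.27 on female 2 mg, then 10.38 and 9.77, and 8.78 on male 2 mg, then 9.38 and 8.85. These 2 and Ttr were the 3 of 14 markers whose 20 mg arrays all lay above both at 2 mg, beside 3.74% of all probes. For 1 marker, Prlr, all lay below both, beside 4.59% of all probes. The bicarbonate transporter Slc4a5 was higher by 3.88 in females, the water channel Aqp1 by 2.52, Calml4 by 2.07 and the potassium channel Kcnj13 by 2.06, and in males these 4 differed by 0.68, -0.89, 0.20 and 0.43. Calml4 was not well above background on the dim array, and on the shared slide it was higher by 2.06. These are values of the brightest probe of each gene, and other probes did not all share the direction. The other probe of Slc4a5 was lower in females, at -2.86, and that of Otx2 at -3.75, while that of Kcnj13 was at 0.54. None of these 3 probes was well above background on the dim array, and on the shared slide they stood at -2.70, -2.75 and 0.70. Prlr was the marker past 2.5-fold lower in the female mean, at -2.09, and it was not well above background on the dim array.

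Summed over the 14 markers on the linear scale, the choroid plexus signal as log2 was 13.47 on female 2 mg, 16.55 and 15.28 on the female 20 mg arrays, 15.04 on male 2 mg, and 15.93 and 15.64 on the male 20 mg arrays. The female 2 mg pool therefore had the lowest sum, and both 2 mg pools lay below all 20 mg pools. Ttr makes up most of this sum on every array but female 2 mg, and the median over the 14 markers was not ordered so, since male 20 mg replicate 2, at 7.88, lay below male 2 mg, at 8.09. None of the defining markers was absent from all arrays; Cldn2 was well above background on 2 of 6.

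**Figure D4:**
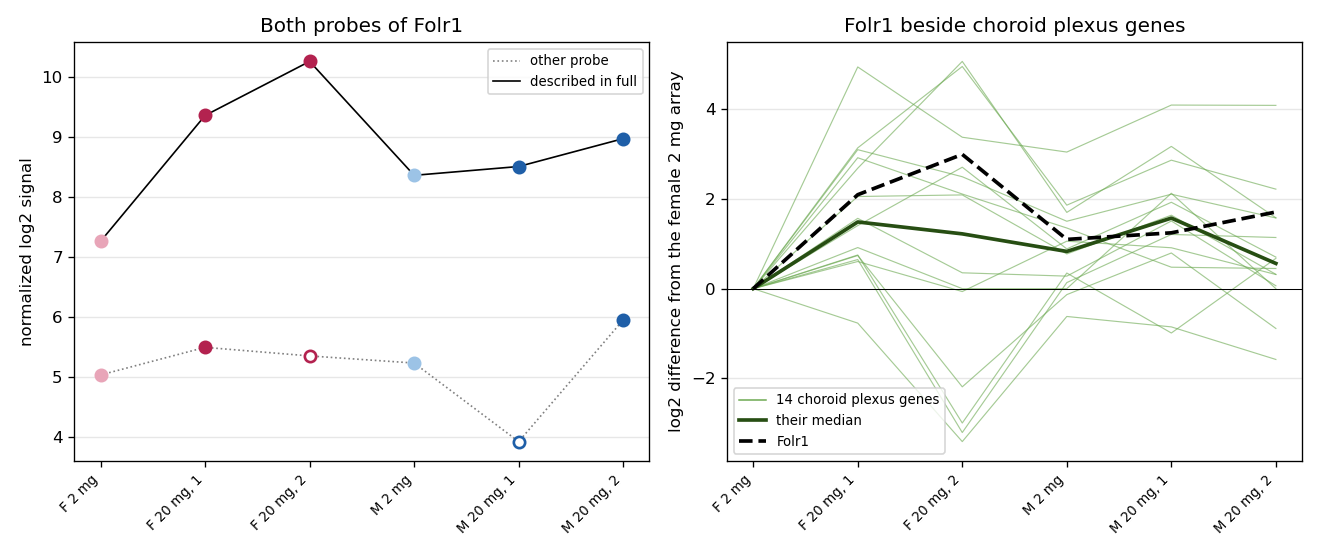
Left, normalized log2 signal (y axis) of both probes of Folr1 on each array (x axis; F female, M male, dose in mg/kg, then the 20 mg replicate), filled where well above background. Right, log2 difference from the female 2 mg array for Folr1 (dashed), 14 choroid plexus genes (thin lines) and their median (thick line); lines join arrays for reading only. The probe described in full goes from 7.26 to 10.26 and the other from 3.93 to 5.95, and on female 20 mg replicate 1 Folr1 stands 2.10 and the list median 1.49 above the female 2 mg array.

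The likeness of single genes to Folr1 was computed over the 5 arrays other than female 20 mg replicate 2, among 16783 probes, and is a description of arrays that share their doses, slides and brightness. The highest Pearson r values were those of G2e3, at 0.996, LOC100044339, at 0.995, Klk4, at 0.981, Kctd3, at 0.977, and Trpm3, at 0.976, a cation channel gene that the choroid plexus also expresses. Ttr had an r of 0.968, against -0.30 for Mrc1, a marker of border macrophages, -0.34 for P2ry12 of microglia and -0.50 for Col1a1 of the meninges. On these 5 arrays Folr1 was ordered much like Ttr and unlike the other 3 genes. Each cell type was represented here by 1 gene, and the r of Folr1 with the other listed markers was not examined. Of the 14 choroid plexus markers, 3 had all 20 mg arrays above both at 2 mg, and 1, Prlr, had all below.

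Folr2 had no such partner among Ttr, Mrc1, P2ry12 and Col1a1, and its r with the other listed markers was not examined. Over the same 5 arrays, its r was 0.25 with Mrc1, 0.49 with P2ry12, 0.26 with Col1a1 and 0.62 with Ttr. The genes most like it, among 21113 probes, were Surf1, Zfp949, Mrpl15, 5930434B04Rik and Gm166, all between 0.998 and 0.999. Of 7 border macrophage markers tested, 0 were past 2.5-fold in males, beside 2.21% higher and 4.19% lower of all probes. In females 0 were higher and 2 lower, beside 7.12% and 17.3% of all probes. Mrc1 itself measured 9.08, 9.14 and 8.16 on the female arrays and 9.31, 9.09 and 8.13 on the male arrays. The order is 2 mg, replicate 1 and replicate 2. Of the microglia markers 0 of 8 were past 2.5-fold in males and 1 was higher in females, beside 7.12% of all probes. Of the meninges markers 1 of 9 was lower in each sex, beside 4.19% of all probes in males and 17.3% in females.

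The labelled tissue was checked against its markers. The titles and the paper give cerebellum, while 1 field of the labels gives the whole brain. All 14 cerebellum markers were well above background on the 3 arrays of the shared slide, and 12 to 14 on every array but the dim one, where 8 were. En1, an early marker of the region, measured 4.13 to 6.39 and was well above background on 4 of 6 arrays. Forebrain markers were present too, with 9 or 10 of 10 well above background on 4 arrays, 5 on male 20 mg replicate 2 and 1 on the dim array.

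The median difference of the 9 forebrain markers tested was 0.89 in males, with 2 past 2.5-fold higher, beside 2.21% of all probes. In females it was -0.46 over both 20 mg arrays, with 0 higher and 2 lower, beside 7.12% and 17.3% of all probes. On the shared slide the female median was 0.85, with 3 higher, beside 1.95% of all probes. The part of tissue content from outside the cerebellum in the member differences was not tested.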

How the data were processed

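RNA of P1 cerebellum was measured on 6 single-colour Agilent arrays. The deposited scanner files hold intensity values that the authors made with Agilent Feature Extraction 10.7.3.1, namely a processed signal with the background subtracted, the mean signal and the local background, with the software's call of well above background. The authors' deposited value table holds log2 values, quantile normalized with a floor in BRB-ArrayTools, and was used as an alternative; its floor differs between arrays. The titles gave each sample its sex and dose.

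Outlier spots were left out, spots of a probe were averaged, and log2 processed signals were quantile normalized over 6 arrays and raised to a floor of 10. limma 3.58.1 (R 4.3.3; lmFit, eBayes with a trend) was fitted to the 4 groups of sex and dose over the 37206 probes that 2 or more of the 6 arrays measured well above background, with Benjamini-Hochberg adjustment, a threshold of 0.05 and 2 residual degrees of freedom. It was tested on simulated data. The fold rule was 2.5-fold, without a test. Likeness used probes with 1 symbol, well above background on 5 arrays, with an SD of at least 50% of that of the member.

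The members and gene lists were chosen with earlier results of these data known. All members are named; of the lists, genes past 2.5-fold in the same direction on every 20 mg array of a sex and detected well above background throughout a dose of that sex, the tissue markers Ttr, Mrc1, P2ry12, Col1a1 and En1 (1 further marker is not reported here), and the 5 genes most like each receptor. Prlr, Cldn2, Kl, Sostdc1, Tmem72, Folr4 and Abcc3 were named after their values were seen. All 7 member accessions matched their symbol in a RefSeq table (GRCm38.p6), used for names alone. Separate pools of a group were taken as replicates, and the number of arrays and the dim signal of female 20 mg replicate 2 limit the precision. Alternatives were the scaling, the background correction, the floor, the value table, the choice of probe, the filters, slide and scan day as blocks, and leaving out each array.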

Additional observations from a re-analysis of the deposited data

Results flagged for a closer look

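Over the 4 arrays at 20 mg, the gap between the lowest Slc19a1 value and its neighbour took up 0.877 of the whole range, above the limit set for 4 values. The low array is female 20 mg replicate 2, where the probe was not well above background. Chance puts about 1 in 20 groups past such a limit.

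Ggh was higher at 20 mg on both female arrays and lower on both male arrays. The difference, females minus males, was 1.29 on the log2 scale, and the limma interaction, with an SE of 1.44, gave an unadjusted p of 0.381 and an adjusted p of 0.999965.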

How the results depend on the processing

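No member was past 2.5-fold in males under any alternative, and limma called 0 members under every alternative, with the lowest adjusted p of a member, 0.40, without female 20 mg replicate 1. The count of 2 members in females was 1 to 6 when a female 20 mg array was left out: 1, Folr1, without replicate 2, and 6 without replicate 1; with the variation filter of the methods it was 1, Slc19a1. Slc25a32 joined with the floor first and in the deposited value table, which gave 3. The count of members whose doses did not overlap, 1, became 2 with a 75th percentile shift (Folr1 and Folr2), 0 with the mean over all probes of a gene, and 1 to 2 with an array left out, being 2 without female 20 mg replicate 2 (Folr1 and Folr2) or male 20 mg replicate 2 (Folr1 and Fpgs). Of 217 values of member differences under alternatives, 40 had the other sign. Among the differences past 2.5-fold, 1 changed sign: Slc19a1 in females, at 0.11 without replicate 2, the dim array, against -3.26 with it and -6.63 without replicate 1. A further 18 moved by more than the SD between the 20 mg arrays. Slide as a block gave 1.38 for Folr1 over both sexes, but 2.04 for Slc19a1, 1.59 for Folr2, 1.6 for Slc25a32 and -1.24 for Slc46a1, opposite in sign to -1.32, -0.07, -0.50 and 0.26 without it; the cause was not tested. The 75th percentile shift moved the median difference of all probes in females from -0.21 to 0.45, where the difference of Folr1 was 2.71. No paired analysis was possible because the 2 mg groups hold 1 array each and share fewer than 2 replicate numbers with the 20 mg groups. Signal over background limits Folr2, Slc19a1 and Slc25a32 on the dim array, and 1 pool at 2 mg per sex leaves the spread at 2 mg unmeasured.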
